A study of Mus musculus with 8 samples.

Results

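The solute carrier (SLC) transporter genes described here carry a symbol made of Slc, a family number, a letter group and a member number, and were selected on 1 measured value, a mean of at least 100 normalized reads over the cornea and the limbus. Of 23420 rows that name a gene, 357 had such a symbol, and 177 of them in 45 families reached the minimum and are called members here. Another 130 lay above 0 but under the minimum, and 50 were listed at 0. The 3 members just inside the minimum were Slc2a4, Slc39a14 and Slc16a1 with means of 102, 104 and 105. The 3 rows just outside it were Slc52a2, Slc25a26 and Slc15a1 with means of 98.1, 97.9 and 94.4. Since the mean covers both tissues, a gene could reach the minimum through its level in 1 tissue.

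SLC genes encode membrane proteins that carry sugars, amino acids, ions, vitamins, metals and metabolites across the plasma membrane and the membranes of organelles, most of them without the direct use of ATP. Family numbers group genes by sequence, so the members of a family usually share a kind of substrate. In the cornea, which has no blood vessels, glucose and other nutrients enter from the aqueous humor, the tear film and the vessels of the limbus. The epithelium passes lactate on to the stroma, and ion and bicarbonate carriers of the corneal endothelium take part in the fluid transport that keeps the stroma clear.

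The tissues came from wild type C57BL/6J mice of 8 weeks. The cornea group is the corneal button, the central cornea, and the limbus group is the limbal rim around it, where the stem cells of the corneal epithelium reside. Neither group was treated. The labels list 8 samples, 4 per tissue, but rims and buttons were pooled and the deposited table holds 1 library per tissue, so there is no spread between animals and no difference has a replicate check. The libraries held 26104317 reads on named genes for the cornea and 21182025 for the limbus. Members took 0.952% of the cornea reads and 1.08% of the limbus reads. Ratios are limbus over cornea on the log2 scale after division of the reads by a size factor per library. The 95% confidence interval (CI) beside a ratio comes from exact binomial (Clopper-Pearson) limits on the share of a gene's reads that were limbal. It covers counting error only, and PCR copies were not told apart by molecular identifiers, so the true error is wider. A difference between whole tissues may stand for fewer cells of a type or for less RNA per cell, which cannot be told apart here.

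Marker genes showed which other cells each library held. All 6 corneal epithelial markers had a higher level in the cornea, with 2611482 cornea reads and 997843 limbus reads in sum. The limbal library held more of all 12 skeletal muscle markers, 513 against 15027 reads in sum, and all 8 blood endothelial markers, 212 against 3282 reads. The same direction was found for 6 of the 7 conjunctival and mucosal markers (39230 against 224978 reads, with Muc5ac at 1 read in each library), all 7 lens markers (1317 against 10947), all 6 photoreceptor markers (617 against 5743), all 7 melanocyte markers (347 against 1654), all 7 smooth muscle and pericyte markers (384 against 2954) and all 7 Schwann cell and myelin markers (5043 against 8000). Of the leukocyte markers, all 7 with reads were higher in the limbus, with 7197 against 15103 reads in sum, as were all 7 corneal endothelial markers with 15467 against 23405, a list that includes the member Slc4a11. Keratocyte markers were divided, 3 of 7 being higher in the limbus, and adipocyte markers were near absent from both libraries with 17 and 106 reads in sum. Of the red blood cell markers, Alas2 had 99 and 102 reads, and the hemoglobin genes Hba-a1 and Hba-a2 were listed at 0. The defining markers in the cornea library ranged down to 0 reads for muscle (Des) and 1 read for endothelium (Esam). The part of these cells in the ratios below was not tested.

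Among the members, 20 were at least 2-fold higher in the limbus, and 14 were at least 2-fold higher in the cornea, called 2-fold limbal and 2-fold corneal. These were 11.3% and 7.91% of the members, beside 9.03% and 8.34% of all 10858 named genes with a mean of at least 100, so both shares lay near the background. The shares of all genes are also the background for each family and list count of members below. The median log2 ratio of the members was 0.04, with quartiles of -0.33 and 0.45, and that of all 10858 genes was -0.12, with quartiles of -0.53 and 0.26. In direction alone, 95 members leaned to the limbus and 82 to the cornea, or 53.7% to the limbus, against 41.2% of all genes with that minimum. This division followed the scaling, since with total-read scaling each log2 ratio moved up by 0.21, which put 115 members (65.0%) and 55.2% of all genes on the limbal side. The same shift applies to every family and list median given here, so that a median less than 0.21 below 0 turns to the limbal side. Where GC centering is named, each ratio was taken relative to the median of all genes in the same of 20 bins of transcript GC content, an alternative chosen after the data were seen. The interval of 42 members included 0. The whole interval lay past 2-fold for 14 limbal and 9 corneal members. Of the 20 members higher in the limbus, 9 were under 100 normalized reads in the cornea and so reached the minimum through the limbus. These were Slc2a4, Slc2a9, Slc4a3, Slc5a3, Slc5a9, Slc19a1, Slc22a17, Slc39a14 and Slc46a1. Of the 14 corneal ones, 4 were under 100 in the limbus and reached the minimum through the cornea, namely Slc16a1, Slc23a3, Slc25a40 and Slc25a43. The remaining 11 and 10 exceeded 100 in both tissues.

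**Figure D1:**
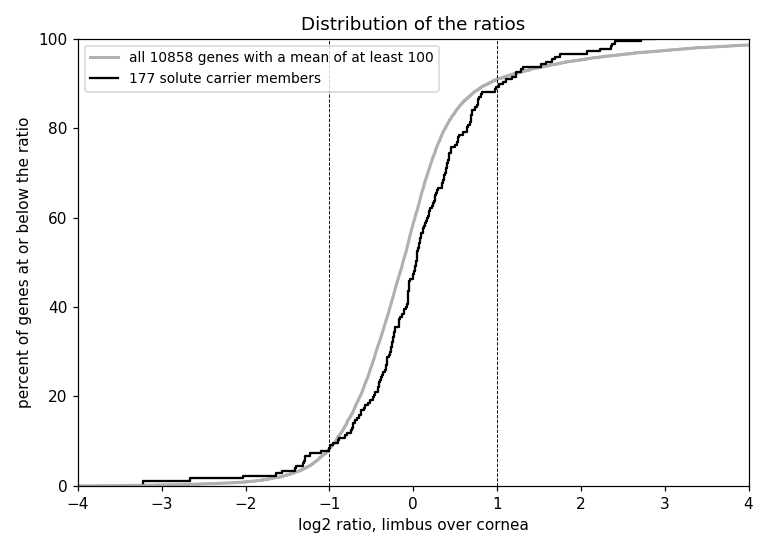
Cumulative distribution of the log2 ratio of limbus over cornea (horizontal axis) as the percent of genes at or below each ratio (vertical axis), for the 177 members in black and all 10858 genes with a mean of at least 100 in gray, with dashed lines at 2-fold. The black curve lies to the right of the gray one through the middle, with medians of 0.04 and -0.12, and both leave similar shares past 2-fold, 11.3% and 9.03% in the limbus and 7.91% and 8.34% in the cornea.

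The largest ratio toward the cornea belonged to Slc16a12, a creatine carrier of the monocarboxylate transporter family that is mutated in an inherited form of cataract with small cornea. It had 2086 cornea reads and 209 limbus reads, a 9.34-fold difference (log2 ratio -3.22, 95% CI -3.44 to -3.02). Slc4a7, the electroneutral sodium bicarbonate cotransporter NBCn1, followed with 791 cornea reads and 117 limbus reads, 6.33-fold (log2 ratio -2.66, 95% CI -2.95 to -2.38). Slc19a2, a high-affinity thiamine transporter, combined a high level with a 4.08-fold difference, at 6941 cornea reads and 1591 limbus reads (log2 ratio -2.03, 95% CI -2.11 to -1.95). In GRCm38, Slc16a12 lies on the minus strand of chromosome 19 from 34668403 to 34747289, Slc4a7 on the plus strand of chromosome 14 from 14702279 to 14799940, and Slc19a2 on the plus strand of chromosome 1 from 164249046 to 164265385.

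Toward the limbus, Slc13a2, the sodium-coupled carrier of citrate and other dicarboxylates, had the largest ratio. It rested on 514 cornea reads and 3513 limbus reads, 7.30-fold (log2 ratio 2.87, 95% CI 2.73 to 3.0). Slc5a9, a sodium-coupled carrier of mannose and related sugars, had 63 cornea reads and 387 limbus reads, 6.56-fold (log2 ratio 2.71, 95% CI 2.33 to 3.12). Slc22a17, known as a receptor for the iron-binding protein lipocalin-2, had 84 cornea reads and 416 limbus reads, 5.29-fold (log2 ratio 2.40, 95% CI 2.06 to 2.76). Of these, Slc13a2 alone had more than 100 reads in each tissue. Slc13a2 lies on the minus strand of chromosome 11 from 78397087 to 78422217, Slc5a9 on the minus strand of chromosome 4 from 111875375 to 111902918, and Slc22a17 on the minus strand of chromosome 14 from 54906304 to 54913132.

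The upstream sequence of 4 of these genes is shown so that the starts of genes with opposite ratios can be compared. Each window holds the 250 bases before the RefSeq start (build GRCm38.p6), read 5′ to 3′ on the strand of the gene. Capitals mark the letters TATAAA for a TATA box, the letters CACGTG for an E-box, the letters GGGCGG for a GC box, and the letters CCAAT for a box of that name, on either strand.
Slc16a12, chr19:34747329-34747578, minus strand, higher in the cornea: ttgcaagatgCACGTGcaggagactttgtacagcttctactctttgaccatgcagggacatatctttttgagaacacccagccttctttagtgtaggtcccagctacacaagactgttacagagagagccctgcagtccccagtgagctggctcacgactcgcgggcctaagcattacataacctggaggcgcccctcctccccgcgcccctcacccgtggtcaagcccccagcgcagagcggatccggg
Slc19a2, chr1:164248796-164249045, plus strand, higher in the cornea: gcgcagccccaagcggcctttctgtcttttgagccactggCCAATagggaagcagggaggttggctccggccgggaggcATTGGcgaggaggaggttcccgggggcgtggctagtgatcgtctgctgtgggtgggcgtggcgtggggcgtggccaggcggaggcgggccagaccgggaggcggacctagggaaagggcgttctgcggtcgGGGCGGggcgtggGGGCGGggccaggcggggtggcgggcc
Slc13a2, chr11:78422235-78422484, minus strand, higher in the limbus: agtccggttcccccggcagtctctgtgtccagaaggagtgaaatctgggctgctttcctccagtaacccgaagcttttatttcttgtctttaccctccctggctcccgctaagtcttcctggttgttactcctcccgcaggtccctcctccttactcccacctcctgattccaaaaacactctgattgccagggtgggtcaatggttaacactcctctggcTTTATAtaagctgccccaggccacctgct
Slc22a17, chr14:54913133-54913382, minus strand, higher in the limbus: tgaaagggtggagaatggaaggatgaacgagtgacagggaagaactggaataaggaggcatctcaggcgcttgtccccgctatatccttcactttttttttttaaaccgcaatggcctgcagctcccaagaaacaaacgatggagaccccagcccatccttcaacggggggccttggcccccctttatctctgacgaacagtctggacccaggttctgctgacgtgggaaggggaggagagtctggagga
The Slc16a12 window held 1 E-box and the Slc13a2 window 1 TATA box read on the opposite strand. Slc19a2 had 2 GC boxes and 2 CCAAT boxes in a window of 73.2% GC, and the Slc22a17 window had none of these motifs. RefSeq gave 173 such windows for 134 of the 177 members, among 32851 windows in all. A TATA box was present in 5.20% of the member windows and 12.4% of all windows, an E-box in 12.1% and 6.02%, a GC box in 64.7% and 32.7%, and a CCAAT box in 30.6% and 33.8%. The windows in all were not limited to genes with a minimum of reads, as the members were. Their median GC content was 52.4%. For the members it was 59.2% (limbal), 62.8% (corneal) and 60.6% (under 2-fold). The differences in share are therefore not read as a trait of solute carriers. Of 17 windows of members 2-fold higher in the limbus and 12 of members 2-fold higher in the cornea, 1 and 1 held a TATA box, 1 and 4 an E-box, 12 and 7 a GC box, and 4 and 6 a CCAAT box. These counts describe letters, not binding.

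**Figure D2:**
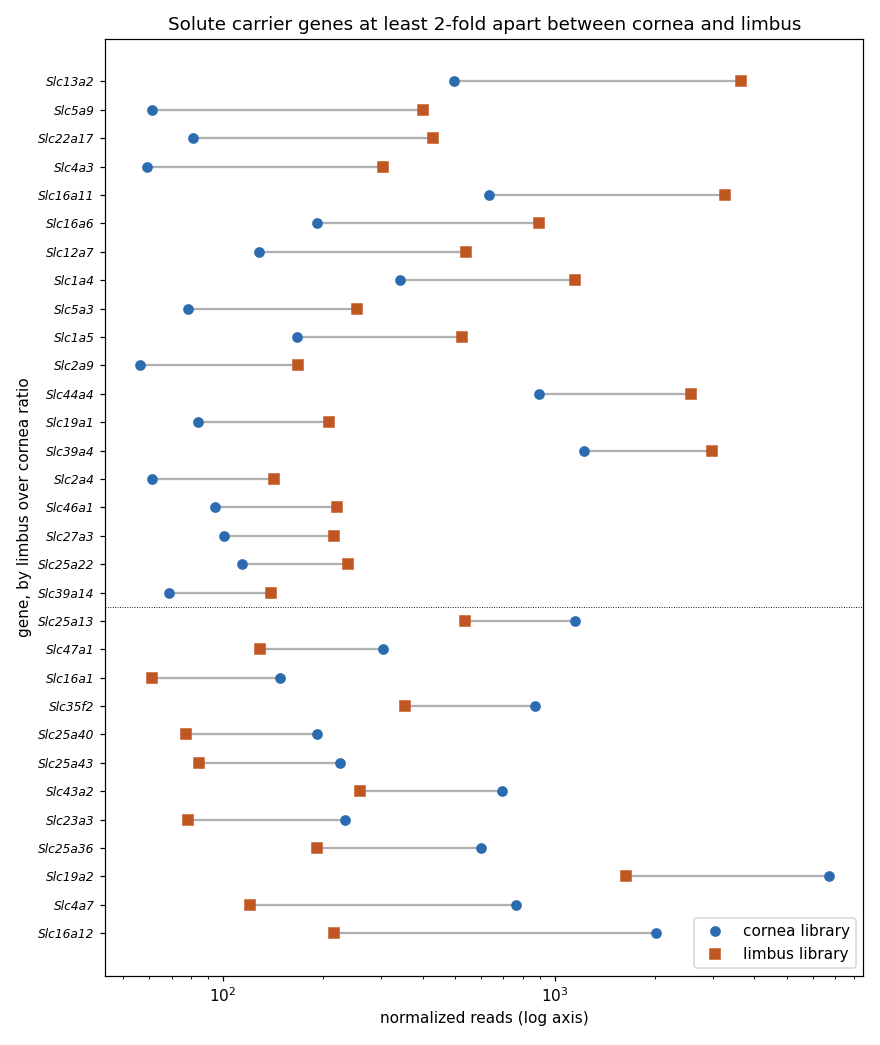
Normalized reads (horizontal axis, log scale) of 31 of the 34 members at least 2-fold apart (vertical axis, ordered by ratio), with a circle for the cornea library, a square for the limbus library and a gray line between them. Each point is 1 library. The 19 genes above the dotted line were higher in the limbus, and the 12 below it in the cornea, where Slc19a2 had the highest level.

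Levels between genes were compared per kilobase of exon. Slc25a5, the ADP/ATP carrier of the inner mitochondrial membrane found in most dividing cells, had the highest level of all members in both tissues, at 8131 normalized reads per kilobase in the cornea and 6256 in the limbus. Its reads are uncertain, as near-identical copies of the gene exist. Slc6a14, which takes up neutral and cationic amino acids, came next at 3947 and 3820 per kilobase, with a log2 ratio of -0.05. Slc25a4, the ADP/ATP carrier of muscle and other differentiated cells, was at 2992 and 3070 per kilobase. Slc5a1, the sodium-glucose cotransporter SGLT1, was at 1978 and 3153. In the cornea the next levels per kilobase were those of Slc19a2 (1749), Slc31a2 (1628), Slc12a2 (1291), Slc35a1 (1287), Slc25a3 (1277) and Slc34a2 (1214). In the limbus they were those of Slc31a2 (2291), Slc13a2 (1506), Slc16a11 (1273), Slc6a6 (1221), Slc25a3 (1220) and Slc34a2 (1160). The tissues thus shared 7 of their 10 highest members. Among the 177 members, Slc13a2 had rank 60 in the cornea and 6 in the limbus, Slc16a11 rank 56 and 7, and Slc19a2 rank 5 and 36. The lowest level of a member in both tissues was that of Slc38a1, at 6.29 per kilobase in the cornea and 7.74 in the limbus.

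**Figure D3:**
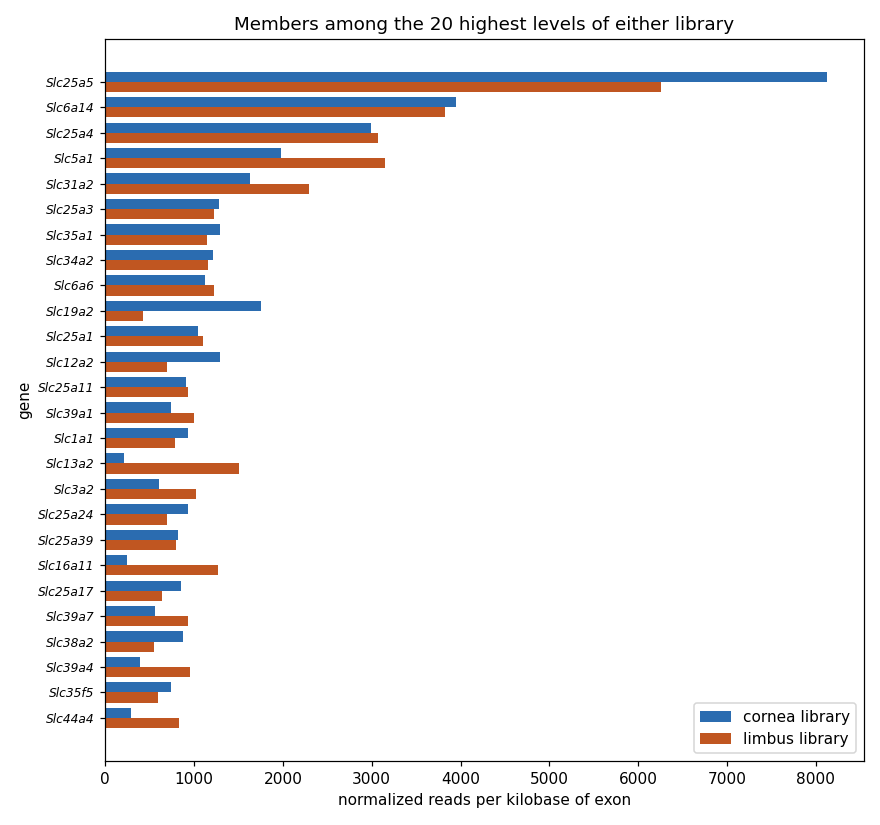
Normalized reads per kilobase of exon (horizontal axis) in the cornea library (blue bars) and the limbus library (orange bars) for the 26 members among the 20 highest of either library. Slc25a5 exceeded the rest in both, at 8131 and 6256, and Slc13a2 (206 and 1506), Slc16a11 (248 and 1273) and Slc19a2 (1749 and 429) showed the widest gaps relative to their level.

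Monocarboxylate transporters (family 16) move lactate, pyruvate, ketone bodies and creatine, and their 8 members were spread more widely than any other family, from -3.22 to 2.36. Beside Slc16a12, Slc16a1 was higher in the cornea. This gene for the lactate carrier MCT1 had few reads, 154 from the cornea and 59 from the limbus (log2 ratio -1.29, 95% CI -1.75 to -0.85). Slc16a11, a monocarboxylate carrier tied to diabetes risk, was higher in the limbus with 656 cornea reads and 3145 limbus reads (log2 ratio 2.36, 95% CI 2.24 to 2.48). So was Slc16a6, a carrier of ketone bodies, with 198 cornea reads and 868 limbus reads (log2 ratio 2.23, 95% CI 2.0 to 2.46). Under 2-fold were Slc16a13 with 955 cornea reads and 540 limbus reads (log2 ratio -0.73), the aromatic amino acid carrier Slc16a10 with 268 cornea reads and 210 limbus reads (log2 ratio -0.26), and Slc16a9 with 154 cornea reads and 162 limbus reads (log2 ratio 0.17). Slc16a11 and Slc16a13 lie tail to tail on chromosome 11 with 372 bases between their annotated ends, and their ratios pointed in opposite directions. Basigin (Bsg) and embigin (Emb), the partners that bring monocarboxylate transporters to the cell surface, had 8464 cornea and 8909 limbus reads (log2 ratio 0.17) and 1020 cornea and 2424 limbus reads (log2 ratio 1.34). The mitochondrial pyruvate carrier subunits Mpc1 and Mpc2 were both higher in the cornea, at -0.42 and -0.92, the former with 1038 and 725 reads and the latter with 3391 and 1680. Other monocarboxylate carriers of the lactate list, Slc16a3, Slc16a7 and Slc16a8, were under the minimum, and 2 of 7 members of the glucose and lactate list were 2-fold limbal and 1 corneal, with a median of 0.53. Of all genes past that minimum, 9.03% were 2-fold limbal and 8.34% corneal. Slc16a1 had 61.0 normalized reads in the limbus and reached the minimum through the cornea.

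Glucose enters cells through the facilitative carriers of family 2 and the sodium-coupled carriers of family 5. Slc2a1 (GLUT1), the basal glucose carrier of many epithelia, had 1834 cornea reads and 1139 limbus reads (log2 ratio -0.59, 95% CI -0.70 to -0.48), whereas Slc5a1 was higher in the limbus with 8391 cornea reads and 12516 limbus reads (log2 ratio 0.67, 95% CI 0.63 to 0.71). Both differences were under 2-fold and beyond counting error. Slc2a4 (GLUT4), the insulin-responsive carrier of muscle and fat, had 63 cornea reads and 138 limbus reads (log2 ratio 1.23, 95% CI 0.79 to 1.68) and lay beside skeletal muscle markers that went from 513 to 15027 reads in sum, whose part was not tested. Slc2a9, a urate carrier, had 58 cornea reads and 163 limbus reads (log2 ratio 1.59, 95% CI 1.15 to 2.04). Slc2a8 and Slc2a12 had log2 ratios of 0.53 and -0.32. In family 5, the myo-inositol carrier Slc5a3 had 81 cornea reads and 245 limbus reads (log2 ratio 1.69, 95% CI 1.32 to 2.07), and its reads are uncertain because the gene overlaps Mrps6 on the same strand. Slc5a8, a carrier of lactate and short-chain fatty acids, was among the more abundant members with 2781 cornea reads and 3547 limbus reads (log2 ratio 0.45). Slc5a6, which carries biotin and pantothenate, had 254 cornea reads and 179 limbus reads (log2 ratio -0.41). Families 2 and 5 each had 2 of 5 members at least 2-fold limbal and 0 corneal, with medians of 0.53 and 0.67. All 4 of these (Slc2a4, Slc2a9, Slc5a3 and Slc5a9) had under 100 normalized reads in the cornea and reached the minimum through the limbus, where they were higher, so the counts and medians follow in part from the selection. GC centering put the medians at 0.16 and 1.20.

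The bicarbonate transporters of family 4 set the pH of cells and, in the corneal endothelium, carry bicarbonate. Slc4a7 had the lowest ratio of the family. Slc4a3, a chloride-bicarbonate exchanger of excitable tissues, had the highest with 61 cornea reads and 294 limbus reads, 5.15-fold higher in the limbus (log2 ratio 2.36, 95% CI 1.96 to 2.79). Slc4a11, whose loss causes corneal endothelial dystrophy, had 843 cornea reads and 1226 limbus reads (log2 ratio 0.64, 95% CI 0.51 to 0.76). Slc4a2, the widespread anion exchanger AE2, had 1550 cornea reads and 1771 limbus reads (log2 ratio 0.29), and Slc4a4, the electrogenic sodium bicarbonate cotransporter of the endothelium, had 222 cornea reads and 249 limbus reads (log2 ratio 0.26, 95% CI -0.01 to 0.53), an interval that included 0. Of the bicarbonate and chloride exchanger list, 8 of 17 genes were members, 1 being 2-fold limbal and 1 corneal, with a median of 0.27. The 3 members of family 26, anion exchangers and sulfate carriers, lay between -0.25 (Slc26a7) and 0.70 (Slc26a11), with Slc26a2 at -0.06. Of the list of endothelial pump transporters, 7 of 10 were members, 0 limbal and 2 corneal (Slc4a7 and Slc16a1) past 2-fold, with a median of 0.26. Of all genes past the same minimum, 9.03% were 2-fold limbal and 8.34% corneal. Slc16a1 had 61.0 normalized reads in the limbus and reached the minimum through the cornea. GC centering brought it to -0.72, under 2-fold, and Slc4a7 to -2.04. Beside this list, all 7 corneal endothelial markers were higher in the limbus, from 28 to 902 reads for the carbonic anhydrase Car12, and their part was not tested.

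Cation-chloride cotransporters (family 12) adjust cell volume and chloride. Slc12a2 (NKCC1), which loads chloride into secreting epithelia, was the member with the most reads in the cornea, with 14579 cornea reads and 7345 limbus reads (log2 ratio -0.89, 95% CI -0.93 to -0.85), just under 2-fold, which GC centering brought to -0.42. Among the potassium-chloride cotransporters, Slc12a7 (KCC4) was higher in the limbus with 133 cornea reads and 523 limbus reads (log2 ratio 2.07, 95% CI 1.79 to 2.36), as was Slc12a4 (KCC1) below 2-fold with 578 cornea reads and 928 limbus reads (log2 ratio 0.78). Slc12a9 had 192 cornea reads and 257 limbus reads (log2 ratio 0.52). The median of the 5 members was 0.52. In family 9, the sodium-proton exchangers Slc9a8 and Slc9a9 were at 0.06 and -0.27. The scaffold proteins Slc9a3r1 and Slc9a3r2, which anchor such exchangers, had 3083 and 4091 reads (log2 ratio 0.50) and 49 and 493 reads (log2 ratio 3.43), the latter beyond any member. No sodium-calcium exchanger of the list was a member under its listed symbol, but Slc24a6, the older name of the mitochondrial exchanger Slc8b1, was with 2241 cornea reads and 1731 limbus reads (log2 ratio -0.28).

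**Figure D4:**
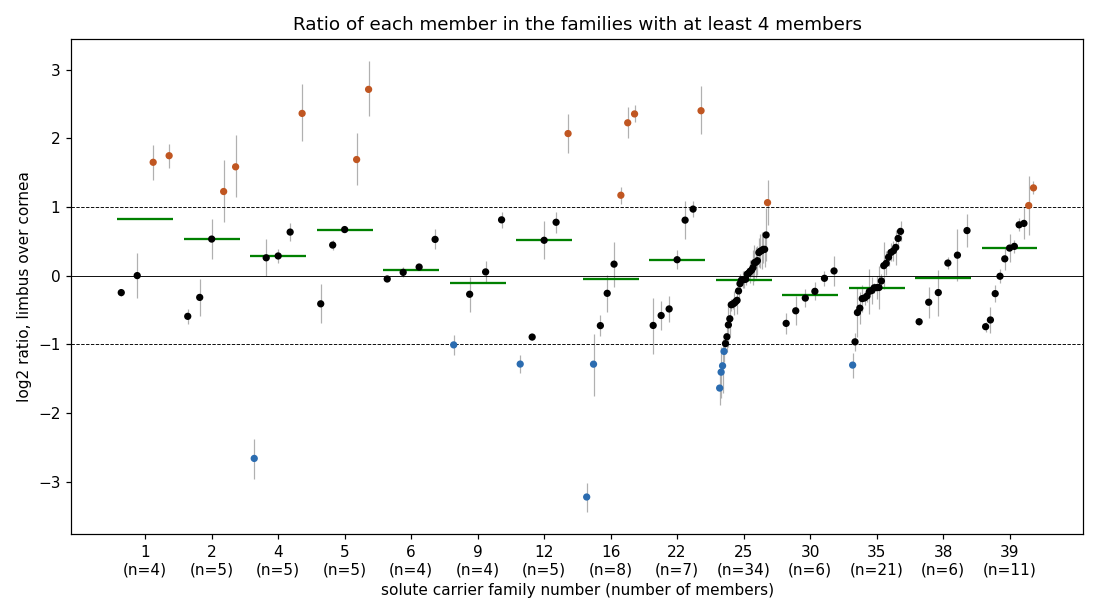
Log2 ratio of limbus over cornea (vertical axis) of the 125 members in the 14 families with at least 4 members (horizontal axis). Points are genes ordered by ratio, gray bars are 95% CIs of counting error, green lines are family medians, orange and blue points are at least 2-fold higher in the limbus and the cornea, and dashed lines mark 2-fold. Family 16 reached from -3.22 to 2.36, whereas families 6, 30 and 38 had no point past 2-fold.

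Amino acid transporters were led by genes whose levels were near equal. Slc6a14 had 14013 cornea reads and 12688 limbus reads, and Slc6a6, which carries the osmolyte taurine, 9778 cornea reads and 9991 limbus reads (log2 ratio 0.13). The creatine carrier Slc6a8 and the glycine carrier Slc6a9 were at 0.05 and 0.53, so 0 of the 4 members of family 6 were 2-fold apart. Slc1a4 and Slc1a5 exchange small neutral amino acids such as serine and glutamine and were both higher in the limbus. Slc1a4 had 353 cornea reads and 1110 limbus reads (log2 ratio 1.75, 95% CI 1.57 to 1.93). For Slc1a5 there were 173 cornea reads and 509 limbus reads (log2 ratio 1.65, 95% CI 1.40 to 1.91). The glutamate carriers of the same family differed less, Slc1a1 with 7969 cornea reads and 6289 limbus reads (log2 ratio -0.25) and Slc1a3 with 159 cornea reads and 149 limbus reads (log2 ratio 0.00), and the family median was 0.83. Of the heteromeric transporters, the heavy chain Slc3a2 had 2192 cornea reads and 3499 limbus reads (log2 ratio 0.77), and its light chains Slc7a5 and Slc7a8 were at 0.26 and -0.06, none of the 3 past 2-fold. Slc7a1, the main carrier of arginine and lysine, had 3591 cornea reads and 1950 limbus reads (log2 ratio -0.79). Slc43a2, a carrier of leucine and other large neutral amino acids, was higher in the cornea with 716 cornea reads and 251 limbus reads (log2 ratio -1.42, 95% CI -1.63 to -1.21). Slc43a3 and Slc43a1 of the same family were under the minimum and higher in the limbus. The former had 9 cornea reads and 165 limbus reads (log2 ratio 4.29), and the latter 3 and 63. Family 38, sodium-coupled carriers of glutamine and related amino acids, had 0 of 6 members past 2-fold and a median of -0.03 (0.18 under total-read scaling), from Slc38a2 with 7963 cornea reads and 4683 limbus reads (log2 ratio -0.67) to Slc38a7 with 235 cornea reads and 347 limbus reads (log2 ratio 0.66).

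Among the vitamin carriers, the 2 members of family 19 differed in direction. Against the corneal Slc19a2, Slc19a1, the reduced folate carrier, was higher in the limbus with 87 cornea reads and 202 limbus reads (log2 ratio 1.31, 95% CI 0.94 to 1.69), although Slc19a1 had under 100 normalized reads in the cornea. Slc46a1, the proton-coupled folate transporter, was also higher in the limbus with 98 cornea reads and 214 limbus reads (log2 ratio 1.22, 95% CI 0.87 to 1.58), and its relatives Slc46a2 and Slc46a3 were at 0.70 and 0.69. Slc44a4, which takes up thiamine pyrophosphate and choline, had 925 cornea reads and 2490 limbus reads (log2 ratio 1.52, 95% CI 1.41 to 1.63), toward the limbus, while the choline carriers Slc44a1 and Slc44a2 were at -0.13 and 0.02. Slc23a3, of the ascorbate transporter family, had 241 cornea reads and 76 limbus reads (log2 ratio -1.57, 95% CI -1.96 to -1.19), and the ascorbate transporter Slc23a2 itself 206 cornea reads and 199 limbus reads (log2 ratio 0.05). Slc23a1 of the same family was under the minimum and went toward the limbus, with 17 cornea reads and 102 limbus reads (log2 ratio 2.68). The riboflavin transporter Slc52a3 had 586 cornea reads and 881 limbus reads (log2 ratio 0.68). Of the 9 members of the vitamin and folate list, 2 were 2-fold limbal and 2 corneal, with a median of 0.68. Among all genes past the same minimum, 9.03% were 2-fold limbal and 8.34% corneal. Like Slc19a1, Slc46a1 had under 100 normalized reads in the cornea (94.8), and Slc23a3 had under 100 in the limbus (78.6). These genes reached the minimum through the tissue where they were higher, so the 2-fold counts follow in part from the selection.

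Zinc importers of family 39 and zinc exporters of family 30 had medians of 0.40 and -0.28. Slc39a4 (ZIP4), which is mutated in the zinc deficiency acrodermatitis enteropathica, had 1268 cornea reads and 2881 limbus reads (log2 ratio 1.28, 95% CI 1.18 to 1.38), and Slc39a14 (ZIP14), which also carries iron and manganese, had 71 cornea reads and 135 limbus reads (log2 ratio 1.02, 95% CI 0.60 to 1.46). These were the 2 of 11 importers at least 2-fold higher in the limbus, with 0 in the cornea. Of all genes past the same minimum, 9.03% were 2-fold limbal and 8.34% corneal. Slc39a14 had 68.7 normalized reads in the cornea and reached the minimum through the limbus. GC centering brought it to 0.95, which left 1 importer past 2-fold, Slc39a4 at 1.05. Slc39a8 (ZIP8) had the most cornea reads of the importers and their lowest ratio, with 4410 cornea reads and 2467 limbus reads (log2 ratio -0.74). The other importers were Slc39a13 (0.76), Slc39a7 (0.74), Slc39a1 (0.43), Slc39a11 (0.40), Slc39a3 (0.25), Slc39a6 (-0.01), Slc39a9 (-0.26) and Slc39a10 (-0.64), by log2 ratio. All 6 exporters were under 2-fold, from Slc30a4 with 918 cornea reads and 531 limbus reads (log2 ratio -0.69) to Slc30a6 with 335 cornea reads and 329 limbus reads (log2 ratio 0.07). Scaling to total reads put the median of the exporters at -0.07 and that of the importers at 0.61, but after centering in bins of GC content both medians were 0.27, so the exporters turned to the limbal side and the contrast was gone. Slc39a8 was then at 0.16 and Slc30a4 at 0.06. Of 7 iron and copper transporters, 5 were members and 0 were past 2-fold. The copper carriers Slc31a1 and Slc31a2 had log2 ratios of -0.45 and 0.49, with 2540 cornea reads and 1736 limbus reads for the former and 3422 cornea reads and 4505 limbus reads for the latter, and the iron importer Slc11a2 was at 0.15.

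Family 25, the carriers of the inner mitochondrial membrane, was the largest with 34 members of 47 rows. Its median was -0.06, with 1 member at least 2-fold higher in the limbus and 4 on the corneal side. Past the same minimum, 9.03% of all genes were 2-fold limbal and 8.34% 2-fold corneal. Of the 4, Slc25a40 and Slc25a43 had 77.5 and 84.8 normalized reads in the limbus and reached the minimum through the cornea. The corneal count of the family thus follows in part from the selection. After centering in bins of GC content, 0 limbal and 1 corneal member (Slc25a43) remained past 2-fold, and under total-read scaling the median was 0.15. Furthest toward the cornea was Slc25a36, a carrier of pyrimidine nucleotides, with 618 cornea reads and 186 limbus reads (log2 ratio -1.64, 95% CI -1.88 to -1.40). Slc25a43 had 232 cornea reads and 82 limbus reads (log2 ratio -1.40, 95% CI -1.79 to -1.04). Slc25a40, a glutathione carrier, had 199 cornea reads and 75 limbus reads (log2 ratio -1.31, 95% CI -1.72 to -0.92). The aspartate-glutamate carrier citrin, Slc25a13, was also higher in the cornea with 1191 cornea reads and 519 limbus reads (log2 ratio -1.10, 95% CI -1.25 to -0.95). Slc25a22, a glutamate carrier, was the limbal one with 118 cornea reads and 231 limbus reads (log2 ratio 1.06, 95% CI 0.74 to 1.40). Just under 2-fold lay Slc25a46, which acts in mitochondrial shape, with 1073 cornea reads and 506 limbus reads (log2 ratio -0.99), and Slc25a16 with 487 cornea reads and 246 limbus reads (log2 ratio -0.89), which GC centering brought to -0.24 and -0.32. The carriers that serve ATP synthesis had the highest levels and small ratios. Slc25a5 had 13836 cornea reads and 9962 limbus reads (log2 ratio -0.38), Slc25a4 7278 cornea reads and 6987 limbus reads (log2 ratio 0.04) and the phosphate carrier Slc25a3 7324 cornea reads and 6549 limbus reads (log2 ratio -0.07). The uncoupling proteins Ucp2 and Ucp3, which belong to the same family under other symbols, had 15817 and 17051 reads (log2 ratio 0.20) and 126 and 86 reads (log2 ratio -0.46), and Ucp1 was listed at 0.

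The other mitochondrial carriers serve, among others, substrates of the citrate and urea cycles and cofactors. By log2 ratio, those higher in the cornea included Slc25a32 (-0.72), Slc25a15 (-0.63), Slc25a17 (-0.42), Slc25a24 (-0.41), Slc25a44 (-0.40), Slc25a20 (-0.36), Slc25a51 (-0.22), Slc25a12 (-0.12), Slc25a10 (-0.06), Slc25a48 (-0.06) and Slc25a39 (-0.05). Those higher in the limbus included Slc25a29 (0.59), Slc25a42 (0.38), Slc25a28 (0.38), Slc25a45 (0.37), Slc25a23 (0.36), Slc25a35 (0.34), Slc25a25 (0.22), Slc25a38 (0.20), Slc25a27 (0.12), Slc25a1 (0.08), Slc25a37 (0.06) and Slc25a11 (0.02). Among them the citrate carrier Slc25a1 had 2335 cornea reads and 2311 limbus reads, the oxoglutarate carrier Slc25a11 1999 cornea reads and 1900 limbus reads, and the dicarboxylate carrier Slc25a10 1177 cornea reads and 1059 limbus reads. The calcium-regulated ATP-magnesium phosphate carriers Slc25a23 and Slc25a24 had 242 cornea reads and 290 limbus reads and 3282 cornea reads and 2305 limbus reads. Of the list of ADP, ATP and phosphate carriers 6 of 8 were members, 0 of them past 2-fold with a median of -0.01, and of the metabolite carriers 8 of 11 were members, 1 limbal and 1 corneal past 2-fold with a median of -0.09.

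Family 35, carriers of nucleotide sugars into the Golgi apparatus and endoplasmic reticulum and their relatives, had 21 members with a median of -0.17, which was 0.03 under total-read scaling and 0.09 after GC centering. Only Slc35f2 was past 2-fold, toward the cornea, with 901 cornea reads and 342 limbus reads (log2 ratio -1.30, 95% CI -1.49 to -1.12). Slc35a3, the carrier of UDP-N-acetylglucosamine, came close with 1452 cornea reads and 697 limbus reads (log2 ratio -0.96, 95% CI -1.10 to -0.83), but GC centering brought it to -0.06, and its span overlaps Gm43191 on the same strand. Slc35a1, the CMP-sialic acid carrier, had 3050 cornea reads and 2527 limbus reads (log2 ratio -0.18), the highest level per kilobase in the family. At the limbal end stood the GDP-fucose carrier Slc35c1 with 648 cornea reads and 949 limbus reads (log2 ratio 0.65). Of the 13 members of the nucleotide sugar list, 0 were past 2-fold and the median was -0.17. Slc33a1, which brings acetyl-CoA into the endoplasmic reticulum, had 1070 cornea reads and 567 limbus reads (log2 ratio -0.82).

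Carriers of organic ions and drugs included members past 2-fold on each side. Slc47a1 (MATE1), which extrudes organic cations, was higher in the cornea with 314 cornea reads and 125 limbus reads (log2 ratio -1.23, 95% CI -1.54 to -0.93). In family 22, Slc22a17 was the only one of 7 members past 2-fold, toward the limbus. The carnitine carrier Slc22a5 lay just under it with 976 cornea reads and 1790 limbus reads (log2 ratio 0.97, 95% CI 0.86 to 1.08), and its neighbors Slc22a21 and Slc22a4 were at 0.81 and -0.72. Slc22a23, Slc22a15 and Slc22a18 had ratios of 0.23, -0.48 and -0.58. The median of the 7 members was 0.23, or 0.10 after GC centering, with 4 of them on the limbal side. The list of family 22 transporters held 6 members, 3 of them on the limbal side. Its median was -0.13, as a member with a limbal ratio was not listed. The 3 fatty acid transport proteins among the members all had limbal ratios, 1 of them past 2-fold, with a median of 0.99. Slc27a3 had 104 cornea reads and 209 limbus reads (log2 ratio 1.10, 95% CI 0.76 to 1.46), and Slc27a1 lay just under 2-fold with 464 cornea reads and 861 limbus reads (log2 ratio 0.99, 95% CI 0.82 to 1.15). Slc27a4 had 2507 cornea reads and 3155 limbus reads (log2 ratio 0.43). Peptide and lysosomal carriers stayed under 2-fold, among them the peptide transporter Slc15a2 (0.42) and the sialic acid exporter Slc17a5 (0.11), and the list of multidrug, choline and lysosomal carriers had 1 of 11 members past 2-fold in each direction and a median of 0.05. Of the nucleoside carriers, Slc28a3 had 3300 cornea reads and 4062 limbus reads (log2 ratio 0.40), Slc29a1 793 cornea reads and 595 limbus reads (log2 ratio -0.32) and Slc29a3 765 cornea reads and 641 limbus reads (log2 ratio -0.16). The phosphate carriers Slc34a2, Slc20a1 and Slc20a2 had ratios of -0.07, -0.06 and 0.10, the former with 6291 cornea reads and 5627 limbus reads. Among families not described above, Slc10a7 had 899 cornea reads and 546 limbus reads (log2 ratio -0.62) and Slc45a3 115 cornea reads and 184 limbus reads (log2 ratio 0.77). The urea carrier Slc14a1 was at 0.69, the heme carrier Slc48a1 at 0.40, the glucose-6-phosphate carrier Slc37a4 at 0.44 and the magnesium carrier Slc41a1 at -0.32. In all, 26 of the 45 families, with 52 members, had no member past 2-fold. Of the 45, 16 held only 1 member, and 143 of the 177 members were under 2-fold, so this count is not read as a trait of families.

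The organic anion transporters of the Slco group and other carriers and partners without a matching symbol were taken from a list of 30 genes. Of these 29 had a row (Slc8b1 appears only as Slc24a6), 19 had a mean of at least 100, and 5 of the 19 were at least 2-fold higher in the limbus, beside 9.03% of all genes at that mean. Of the 5, Slco2b1, Slc9a3r2 and Slc6a20a had under 100 normalized reads in the cornea and reached the mean through the limbus. These were Slco2b1 with 9 and 223 reads (log2 ratio 4.73), Slc9a3r2, Slc6a20a with 71 and 247 (1.89), Emb, and the prostaglandin carrier Slco2a1 with 124 and 244 (1.07), the cornea being given first. Slco3a1 was 2-fold higher in the cornea with 3017 and 1302 reads (log2 ratio -1.12). Slco4a1 (511 and 630), the ammonium carrier Rhbg (501 and 661), Mfsd5 (1286 and 1757), Mfsd10 (508 and 653), Mfsd12 (116 and 105), the lysolipid carrier Mfsd2a (139 and 136) and the lysosomal Cln3 (244 and 299) were under 2-fold. The remaining 10 had a mean under 100. Slco1a5 had 17 and 26 reads, Sv2a 14 and 40, Sv2b 11 and 42, and Slco1a4, Slco1c1, Slco4c1, Slco5a1 and Rhag had 3 reads or fewer in the cornea and 27, 3, 29, 3 and 1 in the limbus. Rhcg was listed at 0, like Ucp1.

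GC content and ratio moved together in these libraries. Spearman's rho between the GC content of the longest transcript and the log2 ratio was 0.54 over the 177 members and 0.58 over 10791 genes with a mean of at least 100, given as a description, since genes of a library share its preparation. Of the 59 members under 47.8% GC, 1 was 2-fold limbal and 8 corneal, with a median of -0.32. The 59 members above 53.9% GC had 11 and 1, with a median of 0.40. All genes in these ranges leaned the same way, with medians of -0.52 and 0.23. In the lower range 184 of 4282 genes were 2-fold limbal and 707 corneal, and in the upper range 455 and 58 of 3019. The counts of the members thus followed a lean of all genes. After GC centering, 16 of the 20 limbal and 8 of the 14 corneal members were past 2-fold, with 3 limbal and 0 corneal members gained. Among those no longer past it were Slc16a1, Slc25a13, Slc25a36 and Slc25a40 in the cornea, and in the limbus Slc25a22, Slc27a3, Slc39a14 and Slc46a1. Slc16a12 was then at -2.75, Slc4a7 at -2.04, Slc19a2 at -1.82 and Slc13a2 at 2.72. Exon length had a weaker relation to the ratio, with a rho of -0.19 over the members and -0.22 over all genes.

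**Figure D5:**
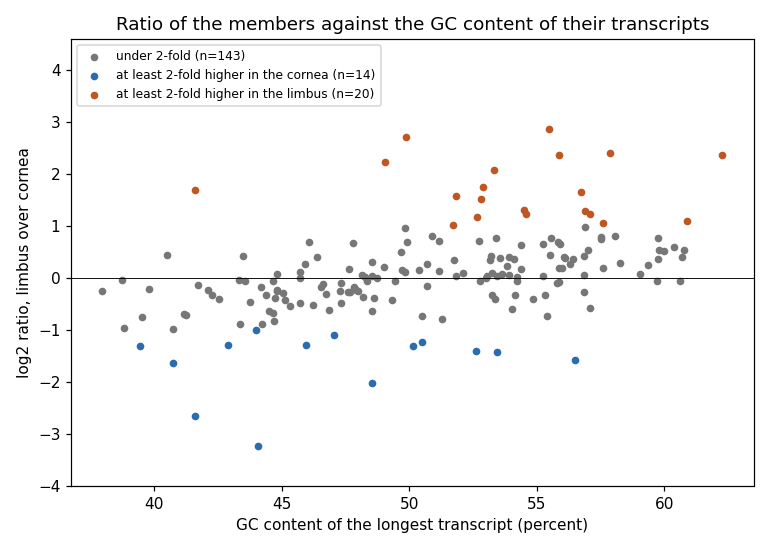
Log2 ratio of limbus over cornea (vertical axis) against the GC content of the longest annotated transcript in percent (horizontal axis), with 1 point per member. Blue points (14) are at least 2-fold higher in the cornea and lie mostly to the left, with a median GC content of 46.5%, and orange points (20) are at least 2-fold higher in the limbus and lie mostly to the right, with a median of 54.5%.

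Below the minimum, 66 of the 130 rows with reads had more than 3 reads in both libraries, and 36 of them (54.5%) were at least 2-fold limbal and 6 (9.09%) corneal. The share among all 3037 genes of this kind was 39.3% limbal and 11.2% corneal, and the medians were 1.24 for the solute carriers and 0.56 for all. Examples chosen after their values were seen include Slc24a1, the sodium-calcium exchanger of rods, with 19 cornea reads and 131 limbus reads, and Slc17a7, a vesicular glutamate carrier, with 12 and 145. They lay beside photoreceptor markers that went from 617 to 5743 reads in sum. The melanosome genes Slc45a2, with 1 and 14 reads, and Slc24a5, with 4 and 30, lay beside melanocyte markers of 347 and 1654 reads. The part of these cells was not tested. Slc24a2, of the same family as Slc24a1, went the other way and was higher in the cornea with 86 and 13 reads. Slc27a6 was also higher in the cornea, with 46 and 8.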

How the data were processed

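Total RNA of pooled corneal buttons and limbal rims was sequenced from stranded libraries. By the methods, adaptors were removed, CLC Genomics Workbench mapped the reads to the mouse build GRCm38 (mm10), and a trimmed mean of M-values served as normalization. Whether counting used strand is not given in the sources used here, so 25 members that overlap a coding gene on the other strand, and 4 on the same strand, carry that limit. The authors deposited, for each gene, a mean normalized signal over the libraries, in which the reads of each library were divided by its size factor. The authors also deposited a shrunken log2 fold change of cornea over limbus with its standard error, and p-values. The p-values were not used, and the fold changes and errors served only to find the reads and are not reported.

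The table has 40904 rows, 17484 of them without a gene name or a mean, which hold 0% of the signal and stayed out. Means of the 17442 named genes above 0 are averages of whole reads of 2 libraries divided by size factors of 1.03 (cornea) and 0.967 (limbus). The pair of read numbers was taken whose predicted fold change and error, under a negative binomial model with shrinkage fitted here to all rows, lay nearest the deposited ones. All 17442 genes were met within 0.001 in sum, 19 of them, none a member, with the gene's own dispersion. For the members the miss was at most 0.000238, and that of the next best pair at least 0.00640. On simulated data of the comparison, the reads of 17068 of 17068 genes were found. Of the changed genes, 100 of 100 at 2-fold and 100 of 100 at 4-fold had the right direction. Their median errors were 0.06 and 0.07 on the log2 scale. The simulated fold changes and errors were made with the same model and the parameters fitted here. This checks the search for the reads only and cannot show that the model matches the authors' fit. The changed genes were picked at a mean of at least 100, so their direction says little about genes with fewer reads. The reads are therefore derived values, not a count table.

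The table holds no value per labelled sample, so each tissue is 1 library and no test across samples was made. The design called for no test in that case. Replicates in the labels are numbered L001 to L004, as sequencing lanes are also named, and nothing says that they came from separate animals. Members are described by ratios, exact Clopper-Pearson 95% intervals and the number past 2-fold beside all genes past the same minimum. A row with 3 reads or fewer in a library, what a count of 0 allows, was given no fold, and in counts at a lower minimum such a library was set to 3 reads. Levels use the union of exons in GENCODE M21 (GRCm38), which matched 177 of 177 members. The members and 38 gene lists were chosen with earlier results of these data known. Genes were named by rule: the 20 largest ratios in each direction, the 10 highest levels per kilobase in each tissue, all members of families with members past 2-fold in both directions, the listed partners, the genes next to the minimum, and members of a list where it is described. The values of 5 members are not reported here. Alternatives were scaling to total reads, a trimmed mean of M-values (30% of ratios and 5% of levels trimmed at each end), a pseudocount of 1, minimum means of 10 and 500, the whole interval past 2-fold, and, added after the data were seen, centering in 20 bins of GC content or exon length. Python 3.11.15 with numpy 2.4.6, scipy 1.17.1 and pandas 2.3.3 was used.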

Additional observations from a re-analysis of the deposited data

How the results depend on the processing

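No paired analysis was possible because the table holds 1 library per tissue and no value for a numbered sample, and no replicate could be left out for the same reason. The counts of 20 limbal and 14 corneal members past 2-fold stayed within 1.5 times under total-read scaling (24 and 12), a trimmed mean of M-values (21 and 13), a pseudocount of 1 (20 and 14) and bins of exon length (22 and 11). In 20 bins of GC content the counts were 19 and 8. The minimum decided the limbal count most: with a mean of at least 10 there were 61 limbal and 20 corneal rows past 2-fold. With a mean of at least 500 there were 7 and 6, because fewer genes were then counted. The shares of all genes at a minimum of 10 or 500 were not counted, so these counts have no background. Below 100, where each tissue exceeded 3 reads, 39.3% of all genes were 2-fold limbal and 11.2% corneal, beside 54.5% and 9.09% of solute carriers. The rise to 61 is therefore not assigned to solute carriers alone. Asking for the whole interval past 2-fold left 14 and 9. The median log2 ratio of the members was 0.25 under total-read scaling and between 0.02 and 0.19 under the others, against 0.04. Of 885 values of the 177 members under 5 alternatives, 270 lay outside the counting interval, and 0 of those past 2-fold changed sign. Depth limits the genes near the minimum, where the interval was up to 0.90 wide on the log2 scale, against a median of 0.33. With 1 library per tissue, the spread between animals is unknown for every ratio.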

Other observations

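Neighboring members did not always share a direction. Of 6 pairs of members within 50 kb of each other, 4 had ratios of opposite sign. Slc22a21 and Slc22a4, on the same strand of chromosome 11 with 2791 bases between them, were at 0.81 and -0.72, and Slc38a1 and Slc38a2 on chromosome 15 were at 0.30 and -0.67. Slc35b2 and Slc29a1 on chromosome 17 were at 0.36 and -0.32, and Slc16a11 and Slc16a13 made up the fourth pair. Slc13a2 and Slc46a1, on opposite strands of chromosome 11 with 43480 bases between them, were both at least 2-fold higher in the limbus, at 2.87 and 1.22. On the X chromosome, Slc25a43 and Slc25a5 were both higher in the cornea at -1.40 and -0.38.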
